A study of Mus musculus with 66 samples.

Results

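Axon guidance ligands and receptors were followed through 66 arrays of mouse medial prefrontal cortex. The members were the genes whose symbols name a class 3 to 7 semaphorin, a plexin, a neuropilin, an ephrin, an Eph receptor, a Slit, a Robo, a netrin, an Unc5 protein or Dcc. Of 73 matching symbols, 66 had a probe set bright enough to keep, among 13196 genes in all. They comprised 34 ligands, 31 receptors and Unc50, which matched by its name only and is not a guidance protein. The 7 matches that were too dim were Efna4, Epha2, Ntn3, Robo2, Sema3d, Unc5cl and Plxna4os1, an antisense transcript that shares the name of Plxna4; their brightest probe sets averaged 3.88 to 5.01 on the log2 scale, under the limit of 5.10. Ephb2 was not analysed here.

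All mice were males of 10 to 12 weeks, with RNA of 4 to 5 animals pooled for every array. Each received saline or 1.8 g/kg ethanol intraperitoneally, then 15 minutes of restraint in a tube and 10 minutes in a light-dark box, and was killed 4 hours after the injection, so the saline controls carried the same handling stress. The inbred strains C57BL/6J (also written C57BL6/J in the labels) and DBA/2J had 3 saline and 3 ethanol arrays each. The 27 BXD strains, inbred lines derived from crosses of these progenitors, had 1 saline and 1 ethanol array each. Values are log2 expression levels, so a difference of 1 is a doubling; they are relative within a probe set and were not compared between genes.

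Guidance cues steer growing axons by attraction or repulsion. Semaphorins signal through plexins, the class 3 members mostly with a neuropilin as co-receptor; ephrins bind Eph receptor tyrosine kinases on neighbouring cells; Slits bind Robos; and netrins bind Dcc and the Unc5 receptors. In the adult cortex the same families remain present and act at synapses, on dendritic spines, and in vessels and glia.

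Most markers of each cell type list had a probe set above the limit. These were 12 of 13 excitatory neuron markers, 11 of 11 inhibitory neuron markers, 11 of 11 astrocyte markers and 7 of 10 striatal neuron markers. So did 10 of 12 myelin and oligodendrocyte, 7 of 7 oligodendrocyte precursor and 10 of 10 microglia markers. Endothelial and pericyte markers had 11 of 12, and meningeal and fibroblast markers 10 of 10. The limit is the 40th percentile of all probe sets, so passing it does not identify cortex. Array medians lay between 5.67 and 5.77 and the standard deviation (SD) of an array's values between 2.06 and 2.17. The closest pair of arrays correlated at 0.997 and still differed, so each counted once. The first DBA/2J saline array stood low in array SD at 2.07, against 2.13 in the other 2 arrays of its group, and BXD38 had the lowest mean array SD of the 27 strains, at 2.07. Calls that were lost without either are given as such, whereas most other results, among them most ethanol differences, keep both.

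The widest strain difference among the members was a low level of Sema4f, a transmembrane class 4 semaphorin, in BXD36. Its saline array read 5.92 and its ethanol array 6.02. The other 64 arrays ranged from 8.01 to 8.79 with a median of 8.46, so both BXD36 arrays lay outside the range of every other array, with a gap of -1.99 to the lowest of them. A second Sema4f probe set read 6.54 after saline and 6.39 after ethanol in BXD36, against a median of 7.28 and a highest value of 7.56 in the other 64 arrays, a gap of -0.46 to the lowest. C57BL/6J and DBA/2J did not show the low level: their 12 arrays lay between 8.27 and 8.71 on the brightest probe set.

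**Figure D1:**
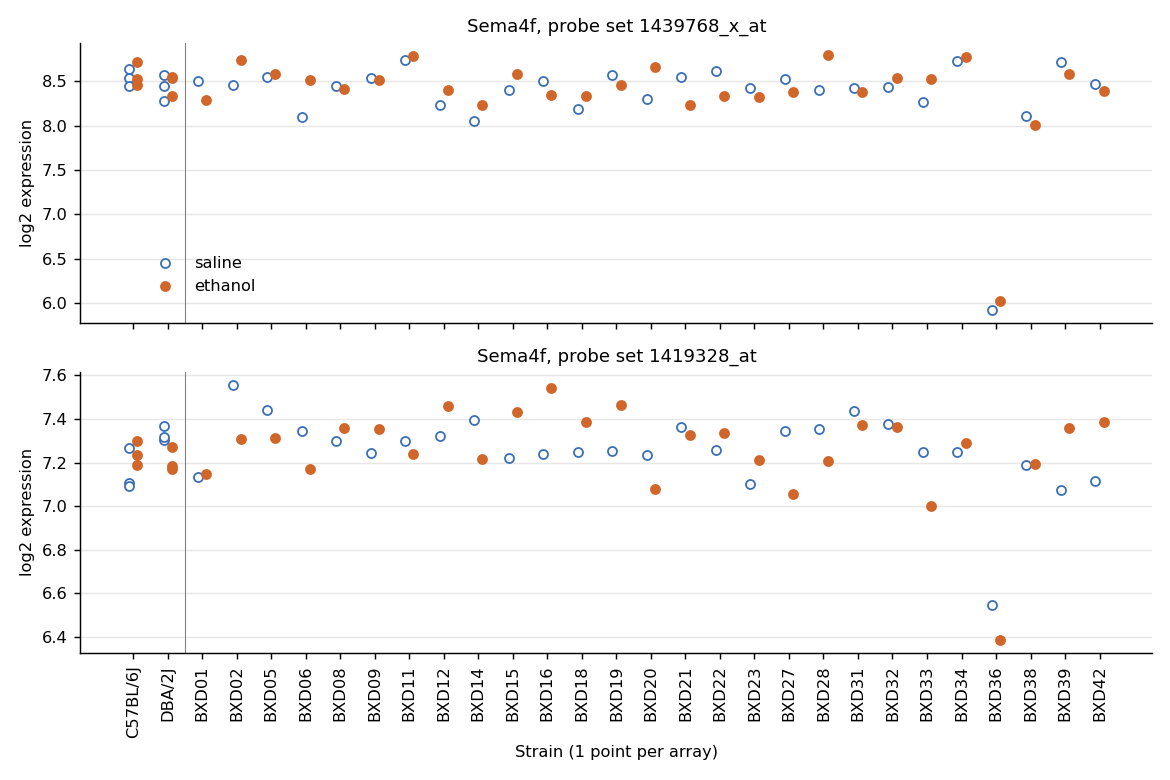
Log2 expression of Sema4f on its brightest probe set (top) and its second probe set (bottom), 1 point per array, open for saline and filled for ethanol, with C57BL/6J and DBA/2J at the left and the 27 BXD strains after them. Both BXD36 arrays lie below every other array on both probe sets, at 5.92 and 6.02 on the top panel and 6.54 and 6.39 on the bottom one.

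A strain that lay at least 1 log2 unit beyond all other arrays, in both of its own arrays, was seen for 7 of 13196 genes (0.053%). Sema4f was the 1 member among them, and each of the other 6 had its strain elsewhere: Zc4h2 in BXD05, Ipcef1 in BXD09, Exo5 in BXD12, Tmem255a in BXD14, Col1a2 in BXD22 and Txndc16 in BXD34, all as a lower level. This rule was set after the Sema4f values had been seen. None of the 10 nearest kept neighbours of Sema4f on the RefSeq gene map left the range of the other BXD strains in both BXD36 arrays. M1ap, the nearest on one side, read 5.8532 and 6.0561 in BXD36 against 5.4330 to 6.0555 in the other BXD arrays. Its higher BXD36 array thus lay just above that range. On the other side the nearest, 2310069B03Rik, read 6.10 and 6.16 against 5.80 to 6.25. Dok1, second on the side of M1ap, read 5.34 and 5.41 against 5.08 to 5.68. Hk2, second on the other side, read 6.24 and 6.26 against 6.03 to 6.77. Over all 27 strains the strain effect of Sema4f had an adjusted p of 1.3e-13 by limma, and without BXD36 one of 0.029. The intraclass correlation, a measure of how far both arrays of a strain share a level, was 0.92 with BXD36 and 0.42 without it.

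Across all 27 BXD strains, 18 of the 66 members (27.3%) differed by strain, where 20.4% of all genes did. The test was limma's moderated F over strain at a Benjamini-Hochberg adjusted p below 0.05. It is given with the intraclass correlation, near 1 when the saline and ethanol arrays of a strain share the same level and near 0 when they do not. The median intraclass correlation was 0.19 over the members and 0.18 over all genes, so the members as a group sat at the general level. The 18 were 9 ligands, namely Sema3a, Sema3c, Sema3e, Sema4f, Sema5b, Sema6d, Efnb2, Slit2 and Ntn5, and 9 receptors, namely Nrp1, Plxnd1, Epha3, Epha4, Epha6, Epha10, Robo1, Robo3 and Unc5d.

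**Figure D2:**
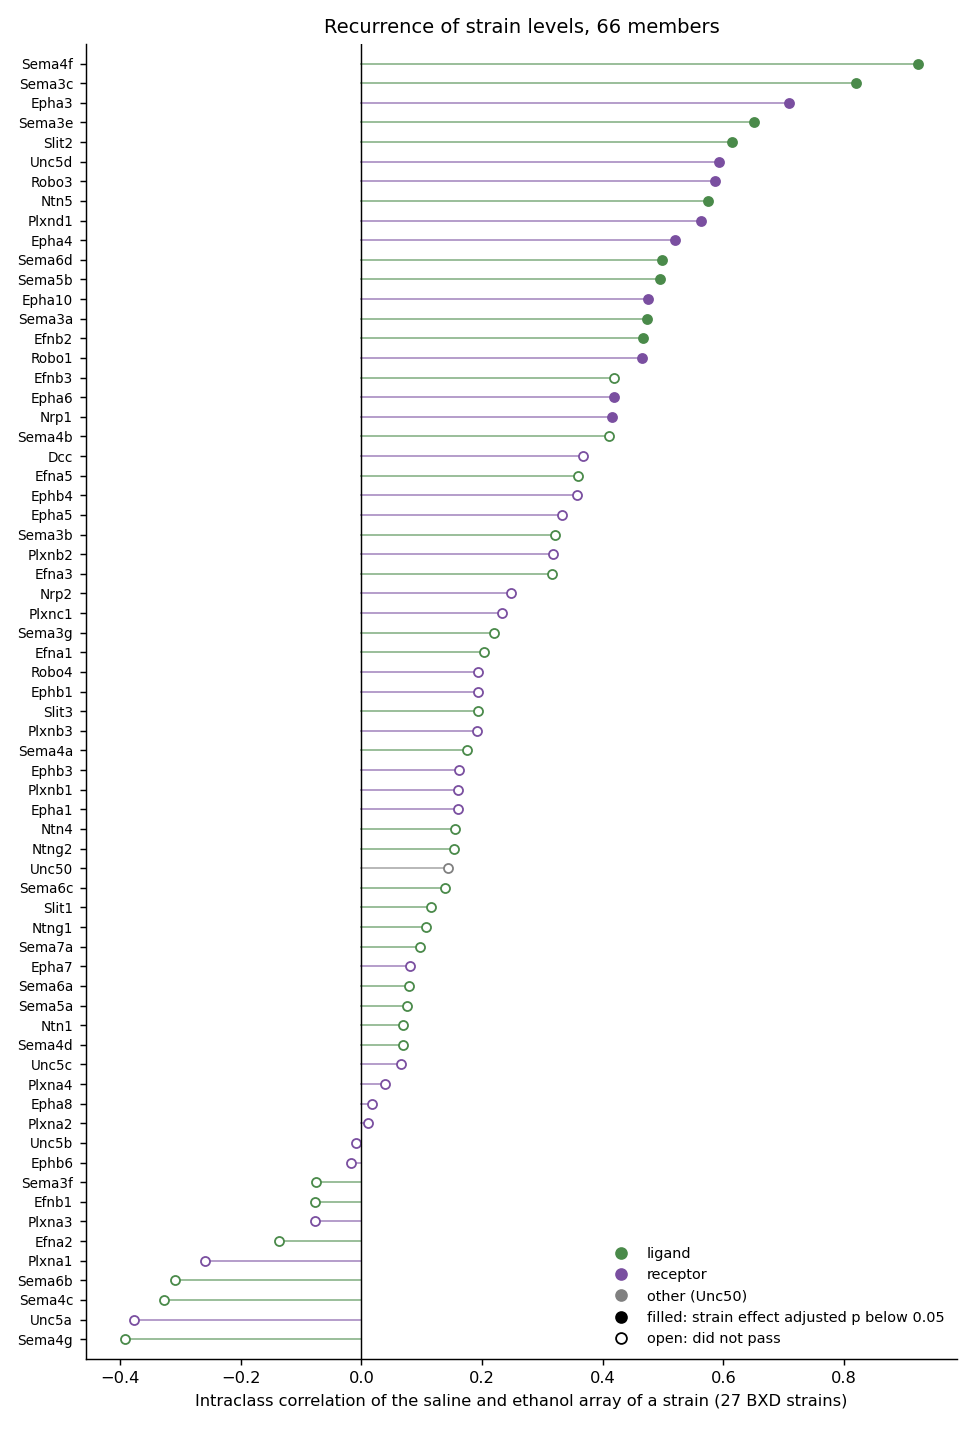
Intraclass correlation of the saline and ethanol array of a strain over the 27 BXD strains for each of the 66 members, coloured by role and filled where the strain effect passed. Sema4f (0.92), Sema3c (0.82) and Epha3 (0.71) stand highest, and Sema4g (-0.39) and Unc5a (-0.38) lowest; without BXD36 the value of Sema4f was 0.42.

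Among the secreted class 3 semaphorins, 3 of 6 members differed by strain. Sema3c, which acts through neuropilins and plexins, had an intraclass correlation of 0.82 (adjusted p = 1.9e-06), with strain means from 7.73 in BXD38 over a median of 8.05 to 8.39 in BXD34. BXD34 read 8.36 after saline and 8.43 after ethanol, while BXD38 read 7.67 and 7.79. Both strains were picked by the mean of these arrays, so nothing about treatment is read from their order. Sema3e, the ligand of Plxnd1 in vessels and some neurons, had a correlation of 0.65 (adjusted p = 0.00014) and strain means from 6.94 in BXD32 to 7.84 in BXD11. Sema3a, the prototype collapsing semaphorin, had one of 0.47 (adjusted p = 0.015); 3 strains lay with both arrays under every progenitor array.

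Recurrence on a second probe set differed between these ligands. Strain means of Sema3e correlated at 0.82 and 0.75 (27 strains, a description) between its brightest and its 2 other kept probe sets. For Sema3c the correlation with the second probe set was 0.55, and that probe set alone had an intraclass correlation of -0.05. Of the transmembrane semaphorins, Sema5b had a correlation of 0.49 between the arrays of a strain (adjusted p = 0.0082) and strain means from 5.75 in BXD01 to 6.41 in BXD19. Sema6d also passed (0.50, adjusted p = 0.038), but the call was lost without any of 6 strains, and without BXD38 the correlation was 0.22 (adjusted p = 0.45); the other 5 were BXD08, BXD11, BXD16, BXD19 and BXD21.

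Among semaphorin receptors, Plxnd1 differed by strain, as the 1 of 9 plexins to do so (0.56, adjusted p = 0.0023), between 7.21 in BXD38 and 7.93 in BXD34. Nrp1, co-receptor of class 3 semaphorins and of vascular growth factor, had a correlation of 0.42 (adjusted p = 0.014). BXD27 was its lowest strain, with 7.86 after saline and 7.48 after ethanol. On 2 further probe sets its ethanol array was also the lowest of all, with 7.55 and 7.08 on one and 6.64 and 6.15 on the other, but on another it read 6.36 and 6.05, inside the range of the other arrays (5.74 to 6.74). Without BXD27 the correlation of Nrp1 was 0.25 (adjusted p = 0.11), so that strain carried its call.

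Of the Eph receptors, 4 of 8 EphA receptors and 0 of 4 EphB receptors passed, and the difference between the subclasses was not tested. Epha3 stood first among them with 0.71 (adjusted p = 6.7e-06). Its strain means ran from 6.14 in BXD02 to 7.47 in BXD19, a range of 1.33, and 6 strains had both arrays above all 12 progenitor arrays. BXD19 read 7.56 after saline and 7.37 after ethanol; on the other 2 kept probe sets it read 7.08 and 6.84, and 6.74 and 6.18. Strain means on those 2 probe sets correlated with the brightest at 0.89 and 0.74. Epha10, a receptor with an inactive kinase, passed with 0.48 (adjusted p = 0.027) and lost the call without BXD01, BXD15 or BXD20 (adjusted p up to 0.088).

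Epha4, a receptor of both ephrin classes found in neurons and astrocytes, had strain means from 9.23 in BXD38 to 9.84 in BXD22 (0.52, adjusted p = 0.0093). Epha6 ran from 5.42 in BXD38 to 6.29 in BXD01 (0.42, adjusted p = 0.018). Both were lowest in BXD38, and both calls were lost without it: the adjusted p was 0.054 for Epha4 and 0.10 for Epha6. Epha6 also lost its call without BXD36. Of the ephrins, Efnb2 passed (0.47, adjusted p = 0.028) and lost its call without BXD14, BXD22 or BXD38 (adjusted p up to 0.076), whereas 0 of 4 ephrin-A ligands passed, with correlations of -0.14 to 0.36.

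In the Slit and Robo families, Slit2, a secreted repellent, had a correlation of 0.61 (adjusted p = 0.00037), with strain means from 8.12 in BXD38 to 8.92 in BXD19. Strain means on a second Slit2 probe set correlated with these at 0.92, and those on another at -0.37. Robo1 ranged from 6.02 in BXD38 to 7.14 in BXD34, a range of 1.11 (0.47, adjusted p = 0.0068), and without BXD38 its adjusted p was 0.083. Robo3, a divergent Robo known from midline crossing, passed at 0.59 (adjusted p = 0.00075), with 2 strains above all progenitor arrays. Among netrins and their receptors, Ntn5 (0.58, adjusted p = 0.0019) and Unc5d (0.59, adjusted p = 0.00065) passed. Dcc, the netrin receptor (0.37, adjusted p = 0.11), and Ntn1 (0.07, adjusted p = 0.48) did not.

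**Figure D3:**
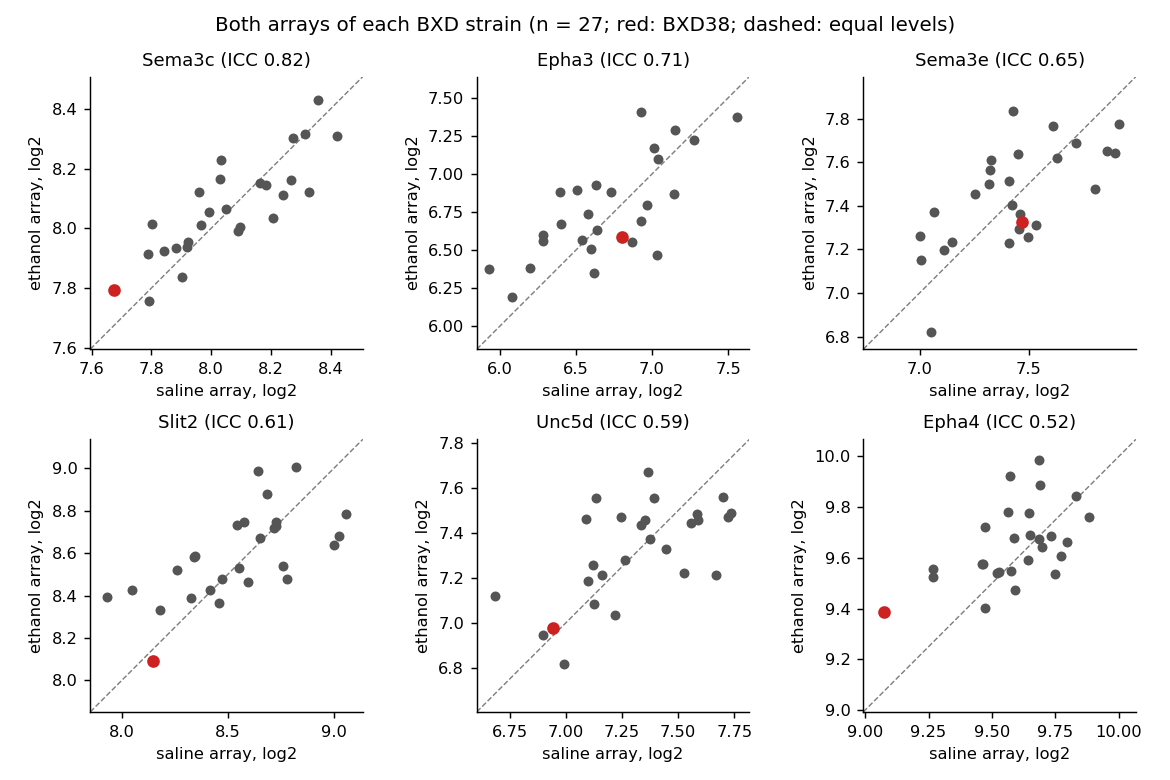
Saline array (x axis) against ethanol array (y axis) of each of the 27 BXD strains, in log2, for the 5 members whose strain levels recurred most after Sema4f and for Epha4, with BXD38 in red and equal levels dashed. Points follow the dashed line most closely for Sema3c (0.82), and BXD38 lies at the low end of Sema3c, Slit2 and Epha4 but not of Epha3 or Sema3e.

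BXD38 was the lowest strain for 8 of the 18 members that passed (44.4%) and for 560 of the 2688 genes that passed (20.8%). It was the highest strain for 0 of the 18 and for 101 of the 2688. Sema3f, which did not pass by strain, had a strain mean of 10.44 in BXD38, against 9.30 to 9.68 in the other strains. The array SD moved with the levels of members that passed. Over the 27 strain means, 10 of the 18 members correlated with the mean array SD (adjusted permutation p below 0.05 over the 18), 9 positively and Sema5b negatively (r = -0.43, rho = -0.46). The strongest were Epha4 (r = 0.88, rho = 0.84, adjusted p = 0.00012), Robo1 (r = 0.80, rho = 0.72, adjusted p = 0.00012) and Sema3c (r = 0.75, rho = 0.77, adjusted p = 0.00012). Without the 2 strains farthest from the median array SD, r was 0.83, 0.68 and 0.64. The median absolute r over all genes was 0.37. How many of all genes would pass the same test was not counted, so the 10 of 18 is not read as particular to the members.

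With the array SD as a covariate 13 members passed. The share of all genes passing in that fit is not given here, so this count is not read as particular to the members. Efnb2, Epha4, Epha6, Nrp1, Robo1 and Sema6d lost the call, 1 other member gained it, and the intraclass correlation of Epha4 became -0.11. For Sema4f, Sema3c, Epha3, Sema3e, Slit2 and Unc5d, the 6 with the highest correlations, the call held with this covariate and without each strain in turn, although the correlation of Sema3c became 0.36 with the covariate. The members with the lowest intraclass correlations were Sema4g (-0.39), Unc5a (-0.38), Sema4c (-0.33) and Sema6b (-0.31); their levels in the saline array did not recur in the ethanol array of the strain.

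Among marker lists, the summed level of excitatory neuron markers moved with Sema3c (r = 0.73, adjusted permutation p = 0.0049) and Epha4 (r = 0.67, adjusted permutation p = 0.013) over the 27 strains. In the saline arrays alone r was 0.38 and 0.40, and in the ethanol arrays 0.62 and 0.60. These were the 2 of 162 relations between the 18 members and 9 lists that passed by Pearson's r. By rank, Plxnd1 with excitatory neuron markers (rho = 0.64, adjusted permutation p = 0.029) and Sema3c with astrocyte markers (rho = 0.61, adjusted permutation p = 0.039) passed as well. Sema3c and Epha4 also moved with the array SD (r = 0.75 and 0.88). The part of cell composition in the strain differences was not tested, nor was that of the array SD in these relations. In whole tissue, fewer cells of a type and less RNA per cell cannot be told apart.

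The progenitor strains were compared first after saline. Whether sequence variants of the strains, BXD strains included, lie under the probes was not tested. Strain differences are therefore given as differences of probe set signal. DBA/2J and C57BL/6J differed in 9 of 66 members (13.6%), against 10.3% of all genes. Higher in DBA/2J were 5 members (4.07% of all genes were), namely Sema4a, Sema5b, Slit2, Robo3 and Plxna3. Lower were 4 (6.27% of all genes), namely Sema3c, Sema3e, Nrp1 and Ephb1. The split of 5 higher and 4 lower became 3 and 4 when each array was centred on its median. After ethanol 5 of 66 differed (7.58%, against 7.23% of all genes). Of these, 3 were higher (4.34% of all genes), namely Sema4a, Sema5b and Slit2, and 2 lower (2.89% of all genes), namely Ephb1 and Epha10; the split became 2 and 4 when quantile normalization was repeated. Passing after both treatments with the same sign were 4 members (6.06%, against 4.52% of all genes): Sema4a, Sema5b, Slit2 and Ephb1. In the main fit the shares of members lay near those of all genes. Shares of all genes under the changed normalizations are not given here.

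**Figure D4:**
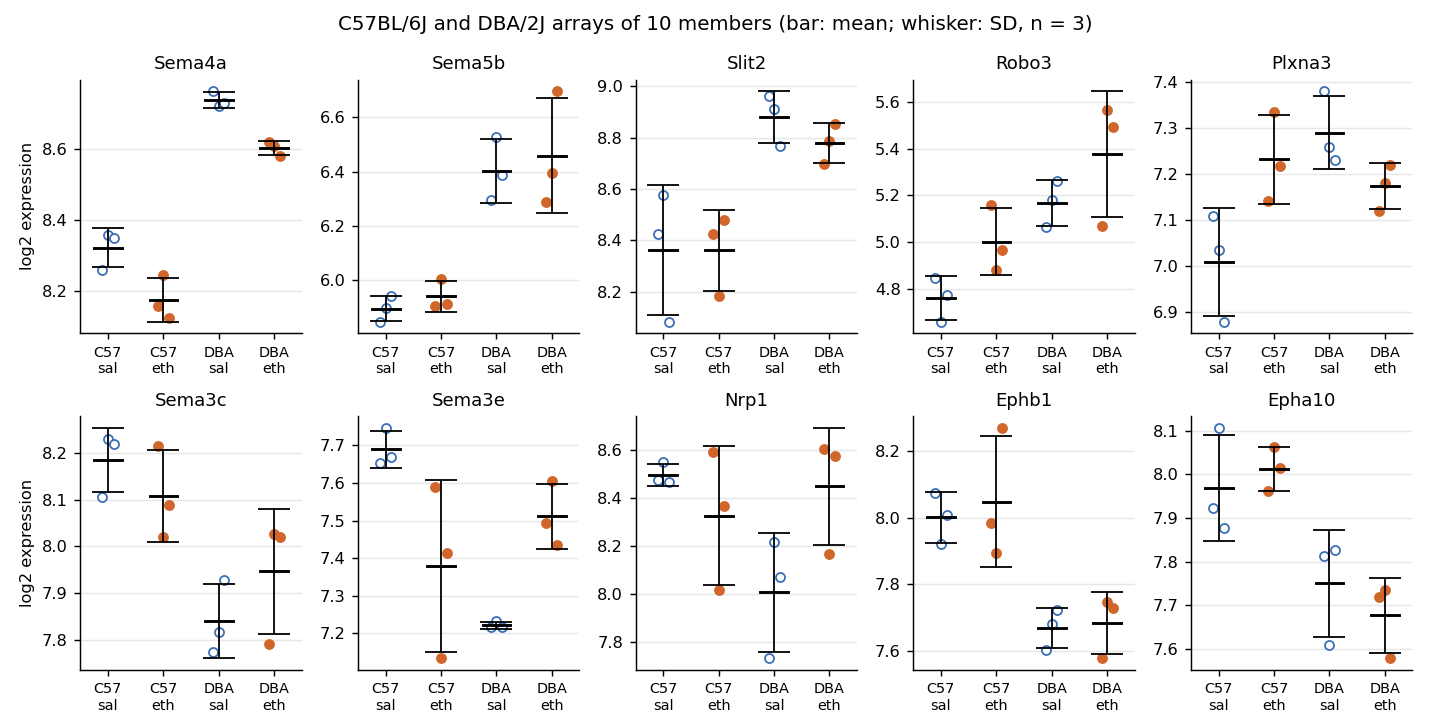
Log2 expression of the 10 members that differed between C57BL/6J and DBA/2J after saline, ethanol or both, 1 point per array with mean and SD (n = 3), open for saline and filled for ethanol. Sema4a, Sema5b and Slit2 are higher and Ephb1 lower in DBA/2J after both treatments with no overlap, whereas Sema3e, Nrp1 and Plxna3 differ after saline and overlap after ethanol.

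Sema4a, a transmembrane semaphorin best known from immune cells and retina, read 8.26, 8.36 and 8.35 in C57BL/6J after saline and 8.76, 8.72 and 8.73 in DBA/2J. After ethanol it read 8.16, 8.24 and 8.12 against 8.62, 8.61 and 8.58. The strains did not overlap under either treatment. The difference was 0.42 (SE 0.07, adjusted p = 0.0012, 1.34-fold) after saline and 0.43 (SE 0.07, adjusted p = 0.0011) after ethanol, and both calls held without each array in turn. A second Sema4a probe set gave a difference of 0.07 after saline and 0.11 after ethanol, with C57BL/6J from 8.08 to 8.29 and DBA/2J from 8.07 to 8.37 after saline, so its groups overlapped.

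Sema5b, a semaphorin with thrombospondin repeats, read 5.85, 5.90 and 5.94 in C57BL/6J and 6.29, 6.53 and 6.39 in DBA/2J after saline. After ethanol it read 5.90, 6.01 and 5.91 against 6.29, 6.39 and 6.70. DBA/2J was higher without overlap each time, by 0.51 (SE 0.10, adjusted p = 0.0034) and 0.52 (SE 0.10, adjusted p = 0.0034). The calls held without each array in turn, and its second probe set differed by 0.35 and 0.53 in the same direction.

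Slit2 read 8.43, 8.58 and 8.09 in C57BL/6J and 8.96, 8.91 and 8.77 in DBA/2J after saline, and 8.43, 8.18 and 8.48 against 8.70, 8.79 and 8.85 after ethanol. All DBA/2J arrays were higher. The difference was 0.52 (SE 0.12, adjusted p = 0.0087) after saline, which held without each array in turn, and 0.42 (SE 0.12, adjusted p = 0.040) after ethanol, which was lost without 7 of the 12 arrays. Of its other probe sets, one gave 0.62 and 0.61 and another -0.39 and -0.26, opposite in sign.

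Robo3 was dim, at 4.85, 4.66 and 4.78 in C57BL/6J and 5.06, 5.18 and 5.26 in DBA/2J after saline (difference 0.41, SE 0.12, adjusted p = 0.039). All 3 C57BL/6J saline arrays and 1 of DBA/2J lay under the limit of 5.10; the gene was kept by its mean of 5.30 over all arrays, so this difference sits at the level where other genes were removed. The ethanol arrays overlapped, and the difference of 0.37 did not pass (adjusted p = 0.071). Plxna3, a receptor partner of Nrp2 for class 3 semaphorins, read 7.11, 7.04 and 6.88 against 7.38, 7.26 and 7.23 after saline (difference 0.28, SE 0.08, adjusted p = 0.045) and differed by -0.06 after ethanol. Leaving out single arrays ended the call of Robo3 in 5 of 12 cases (adjusted p up to 0.13) and that of Plxna3 in 9 of 12 (adjusted p up to 0.16). These were the 2 least stable of the higher calls after saline.

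Of the members lower in DBA/2J, Sema3e read 7.65, 7.75 and 7.67 in C57BL/6J and 7.22, 7.23 and 7.22 in DBA/2J after saline. The groups stood well apart, by -0.47 (SE 0.10, adjusted p = 0.0059), and the call held without each array in turn. After ethanol the arrays read 7.59, 7.13 and 7.41 against 7.49, 7.61 and 7.44, overlapping, with a difference of 0.13 (adjusted p = 0.51). Its 2 other kept probe sets gave -0.44 and -0.19 after saline.

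Sema3c read 8.11, 8.23 and 8.22 in C57BL/6J and 7.77, 7.82 and 7.93 in DBA/2J after saline (difference -0.34, SE 0.09, adjusted p = 0.019). The ethanol arrays overlapped (difference -0.16, adjusted p = 0.33), and the second probe set differed by -0.11 after saline. The saline call of Sema3c was lost without replicate 2 or 3 of C57BL/6J saline or replicate 1 or 2 of DBA/2J saline (adjusted p up to 0.073).

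Nrp1 read 8.48, 8.55 and 8.47 in C57BL/6J and 7.73, 8.22 and 8.07 in DBA/2J after saline (difference -0.49, SE 0.15, adjusted p = 0.048). The lowest of these came from the DBA/2J array of low array SD, and without it the difference was -0.35 (adjusted p = 0.20). Leaving out single arrays, this one among them, ended the Nrp1 call in 7 of 12 cases. After ethanol Nrp1 read 8.59, 8.02 and 8.37 against 8.60, 8.17 and 8.58, which overlapped.

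Ephb1, a receptor of ephrin-B ligands, read 8.07, 7.92 and 8.01 in C57BL/6J and 7.60, 7.68 and 7.72 in DBA/2J after saline, and 7.98, 7.89 and 8.27 against 7.58, 7.75 and 7.73 after ethanol. All DBA/2J arrays were lower, by -0.33 (SE 0.10, adjusted p = 0.038) and -0.36 (SE 0.10, adjusted p = 0.031). The saline call was lost without any 1 of the 6 saline arrays (adjusted p up to 0.14), and the ethanol call without 3 of the 12 arrays (adjusted p up to 0.16). Epha10 read 7.96, 8.06 and 8.01 in C57BL/6J and 7.72, 7.73 and 7.58 in DBA/2J after ethanol (difference -0.34, SE 0.09, adjusted p = 0.030). Its ethanol call was lost without 5 of the 12 arrays (adjusted p up to 0.14). After saline Epha10 differed by -0.22, where the arrays also did not overlap but the test was not passed (adjusted p = 0.14).

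Without the first DBA/2J saline array, 5 members passed after saline: Sema4a, Sema5b, Slit2, Robo3 and Sema3e. With all 66 arrays in 1 fit, 1 member passed after saline, which was none of the 9, and 0 after ethanol. That fit took the 27 BXD strains of a treatment as replicates, so differences between strains entered its spread. Shares of all genes in either of these fits are not given here. Epha3 was not called on its brightest probe set (0.20 after saline, 0.27 after ethanol), but differed on 2 others, by 0.71 and 0.61 after saline and by 1.12 and 0.46 after ethanol, all higher in DBA/2J with adjusted p over all probe sets of at most 0.018. Over the called members, 10 of 11 other kept probe sets had the sign of the brightest one after saline, and 3 of the 11 also passed.

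Myelin markers moved with strain as well. All 10 measured were lower in DBA/2J, 8 of them past the test after saline (median difference -0.68) and 4 after ethanol (median -0.36). Their summed log2 level was 13.32 to 13.38 in C57BL/6J and 12.55 to 12.84 in DBA/2J after saline, and 13.03 to 13.30 against 12.79 to 12.84 after ethanol, with no overlap. The saline arrays also differed in array SD, at 2.14 to 2.15 against 2.07 to 2.13. The part of either in the member differences was not tested.

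The BXD strains, each as the mean of its saline and ethanol array, were set against the midpoint of the progenitors' saline means. For Sema4a 1 of 27 lay on the DBA/2J side of it, BXD32, through its saline array of 9.23 (ethanol 8.42), and for Robo3 27 of 27, while Slit2 was divided 14 to 13 and Sema3e had 16 on the DBA/2J side. Ephb1 had 5 and Sema5b 7 of 27 on that side. Strain means lay on both sides for each of these except Robo3.

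For the ethanol comparisons, 0 of 66 members passed in any of the 5 tests made with limma. Over the BXD strains 0.00758% of all genes passed, in C57BL/6J 0.00758%, in DBA/2J 0%, in the mean of the progenitors 0.0455% and in the difference between their responses 0%. By the exact Wilcoxon signed-rank test of the 27 paired differences, 0 members passed too. At an unadjusted p below 0.05, 6 members stood out in the BXD strains (9.09%, against 4.93% of all genes), 6 in C57BL/6J (9.09%, against 4.98%), 11 in DBA/2J (16.7%, against 12.5%), 9 in the progenitor mean (13.6%, against 8.84%) and 7 in the difference of responses (10.6%, against 8.31%).

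**Figure D5:**
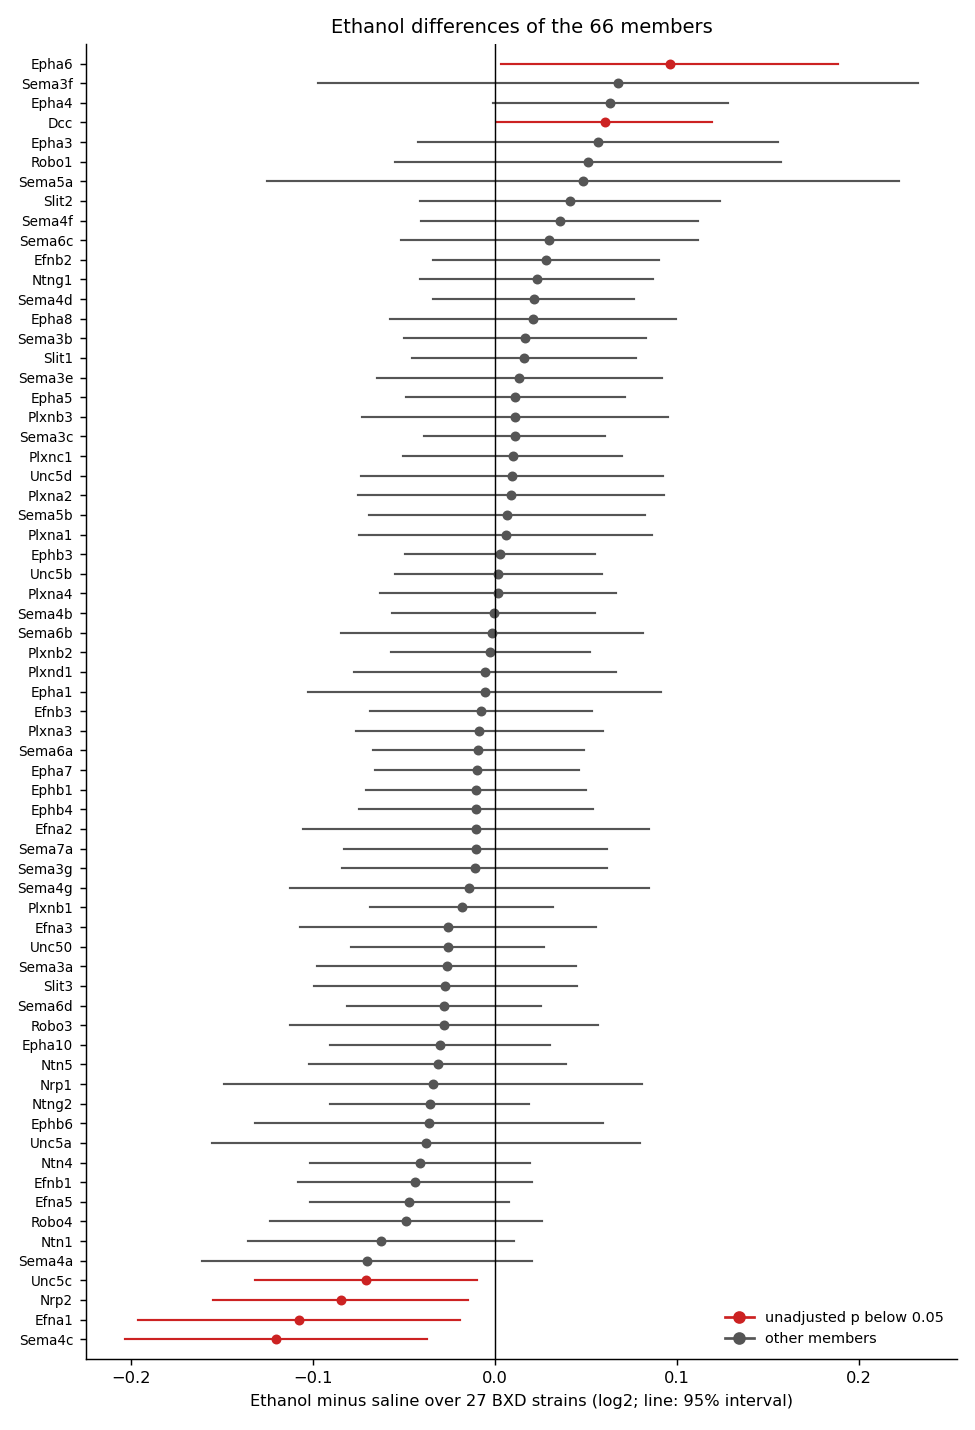
Ethanol minus saline over the 27 BXD strains for the 66 members, in log2, with the 95% interval of limma's fit as a line and unadjusted p below 0.05 in red. Estimates run from -0.12 (Sema4c) to 0.10 (Epha6), and the intervals of all 66 lie between -0.20 and 0.23.

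The BXD panel bounded the ethanol differences most narrowly. The median over the members was -0.01, with 28 above and 38 below 0, and over all genes -0.01. The 95% intervals of the 66 members, taken one at a time, lay within -0.20 and 0.23, so a larger mean difference was outside them. The smallest unadjusted p belonged to Sema4c, a ligand of Plxnb2: saline arrays ran from 6.09 over a median of 6.27 to 6.72, and ethanol arrays from 5.80 over 6.18 to 6.34. The paired difference was -0.12 (SE 0.04, adjusted p = 0.84) and negative in 17 of 27 strains. In C57BL/6J and DBA/2J the same probe set differed by 0.17 and 0.20, the other way.

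The next were Efna1 at -0.11 (SE 0.04, adjusted p = 0.93, 16 of 27 strains lower), Nrp2 at -0.08 (SE 0.03, adjusted p = 0.93, 19 of 27 lower) and Unc5c at -0.07 (SE 0.03, adjusted p = 0.93, 19 of 27 lower). Efna1 is a GPI-anchored ephrin, Nrp2 a co-receptor of Sema3f and Unc5c a repulsive netrin receptor. Above 0 were Epha6 at 0.10 (17 of 27 strains higher) and Dcc at 0.06 (21 of 27 higher). Saline and ethanol arrays overlapped for each of them.

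In C57BL/6J the member with the smallest p was Sema5a, which read 6.14 to 6.82 after saline and 5.42 to 6.16 after ethanol (difference -0.69, SE 0.21, adjusted p = 0.92); the groups overlapped slightly. Sema3e (-0.31), Unc5c (-0.25) and Plxna3 (0.22) did not overlap between treatments, with the same adjusted p of 0.92. In DBA/2J the first were Nrp1 (0.44, SE 0.15, adjusted p = 0.27), Sema4b (-0.28), Sema3e (0.29) and Plxnb3 (-0.29), with adjusted p of 0.27 to 0.31. The Nrp1 difference was 0.30 without the first DBA/2J saline array. These ethanol differences share their saline arrays with the strain comparison above.

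In the mean of both progenitors Epha4 led, with 9.50 to 9.58 after saline and 9.59 to 9.90 after ethanol in C57BL/6J, and 9.22 to 9.45 against 9.55 to 9.69 in DBA/2J. No array overlapped within a strain, and the mean difference was 0.21 (SE 0.07, adjusted p = 0.45). Sema4c (0.19), Unc5d (0.23) and Sema4a (-0.14) followed, with adjusted p of 0.45 to 0.47. In the BXD strains the same members differed by 0.06 (Epha4), -0.12 (Sema4c), 0.01 (Unc5d) and -0.07 (Sema4a).

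By p, the difference between the progenitors' responses was first for Sema3e, where C57BL/6J moved by -0.31 and DBA/2J by 0.29 (difference 0.60, SE 0.14, adjusted p = 0.56), and for Nrp1 (0.61, SE 0.21), Plxna3 (-0.34, SE 0.12) and Plxnb3 (-0.42, SE 0.15), each with an adjusted p of 0.56. By size Sema5a was first (0.74, SE 0.29, adjusted p = 0.56). None passed, so a difference in response was not shown. Over the BXD strains Sema3e differed by 0.01 with ethanol.

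Of the textbook members that passed nowhere, Efna5, a ligand of several EphA receptors, differed by -0.05 with ethanol in the BXD strains and by -0.02 between the progenitors after saline. Efnb3, a midline ephrin, differed by -0.01 and -0.09. Slit1 differed by 0.02 and 0.08, Ntn1 by -0.06 and 0.25, Plxna4 by 0.0017 and 0.12, and the synaptic adhesion protein Ntng1 by 0.02 and 0.18. None of these 6 passed in any comparison.

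Ligand levels were also set against those of their receptors over the BXD strains. Of 29 textbook binding pairs, 26 had both genes kept, and 0 passed a permutation test of Pearson's r adjusted over the 26 (adjusted p at least 0.063). The r was positive for 7 and negative for 19, with a median of -0.09. Slit2 and Robo1 had the highest (r = 0.53, rho = 0.44, permutation p = 0.0037), which was 0.34 without the 2 strains farthest from the median of Slit2 and 0.21 after both were regressed on the array SD. The lowest were Ntn4 and Dcc (r = -0.52, rho = -0.48, permutation p = 0.0054) and Sema3c and Nrp2 (r = -0.51, rho = -0.43, permutation p = 0.0073). After regression on the array SD their r was -0.41 and -0.46. Strain means of Dcc on its other kept probe sets correlated with the brightest at -0.40 and -0.39, so the sign of a Dcc relation rests on the probe set. In the saline arrays 1 pair passed, Sema5a and Plxna3 (r = -0.59, adjusted permutation p = 0.032), and in the ethanol arrays its r was -0.07.

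Genes downstream of the receptors were taken from a list of 58 signalling effectors, of which 50 were measured. With ethanol 0 of 50 passed in any comparison by limma, with 1 to 3 at an unadjusted p below 0.05 (4.93% to 12.5% of all genes). Between the progenitors 1 was higher in DBA/2J after saline, and after ethanol 2 were higher and 1 lower; of all genes 4.07% were higher after saline, and after ethanol 4.34% were higher and 2.89% lower. Src, a tyrosine kinase recruited by several guidance receptors, differed by 0.83 (SE 0.11, adjusted p = 9.26e-05) after saline and by 0.64 (SE 0.11, adjusted p = 0.0012) after ethanol. Dpysl3, a collapsin response mediator, was higher by 0.45 (adjusted p = 0.0053) and Dab1, the Reelin adaptor, lower at -0.28 (adjusted p = 0.045), both after ethanol. By strain 6 of 50 passed (20.4% of all genes did), Src (0.72) and Pak3 (0.68) with the highest intraclass correlations.

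A second list held 36 other guidance and growth-inhibitory proteins, of which 34 were measured. With ethanol 0 of 34 passed, with 1 to 5 at an unadjusted p below 0.05 (4.93% to 12.5% of all genes). After saline 4 were higher and 2 lower in DBA/2J, and after ethanol 2 were higher and 2 lower, against 4.07%, 6.27%, 4.34% and 2.89% of all genes. Reln, the secreted Reelin protein, was higher after saline (0.34, SE 0.09, adjusted p = 0.020) and after ethanol (0.36, SE 0.09, adjusted p = 0.018). Cntn4, an adhesion molecule, was lower at -0.44 (SE 0.09, adjusted p = 0.0031) and -0.43 (SE 0.09, adjusted p = 0.0042). Mag, a myelin inhibitor of axon growth that also belongs to the myelin list, was lower at -0.50 and -0.38. By strain 8 of 34 passed (20.4% of all genes did), with a median intraclass correlation of 0.20 over the list.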

How the data were processed

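The authors' deposited values were log2 expression levels of 45037 probe sets, computed by RMA in affy, as listed in the submitters' processing notes, with versions not given in the sources used here. Its normalization gives all arrays a like distribution, so values are relative. The annotation gave 34945 probe sets 1 symbol, 932 several and 9160 none; 34741 symbols were updated through RefSeq (GRCm38.p6, names and gene order only). Probe sets averaging under the 40th percentile (18015) were removed and the brightest of each gene kept, which left 13196 genes.

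Tests used limma 3.58.1 in R 4.3.3 (with data.table, version 1.17.8), two-sided, with Benjamini-Hochberg adjustment over all genes and a threshold of 0.05. BXD ethanol and strain effects were fitted on 54 arrays with strain as a block, which the strain labels give (26 residual degrees of freedom), and progenitor contrasts in 1 fit of 12 arrays (8 residual degrees of freedom). Correlations used 100000 permutations of the 27 strains. The array number limits precision, and p-values reflect only how far pools differ. The scripts were tested on simulated data. Named genes were the members past the threshold in a progenitor comparison, the 4 with the smallest p in each ethanol comparison, the 6 highest and 4 lowest intraclass correlations, members of pairs past the threshold, 11 textbook members, and at most 4 genes per list and comparison; the other members that passed by strain were added after their values were seen. The members and lists were chosen with earlier results of these data known.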

Additional observations from a re-analysis of the deposited data

Results flagged for a closer look

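For 2 members the saline and ethanol arrays did not overlap in either progenitor strain and lay in opposite order. The share of all genes with such an order was not counted, so nothing is read from the number of members. Sema3e was lower after ethanol in C57BL/6J and higher in DBA/2J, a difference of responses of 0.60 (log2, adjusted p = 0.56 by limma). Without the second C57BL/6J ethanol array its C57BL/6J difference was -0.19 in place of -0.31. Its other kept probe sets moved by -0.11 and -0.21 in C57BL/6J and by 0.21 and -0.03 in DBA/2J, so the opposite order was not seen on each. Plxna3 was higher after ethanol in C57BL/6J and lower in DBA/2J, a difference of -0.34 (adjusted p = 0.56), while its second probe set moved by 0.01 and -0.13. Neither difference passed the test, and both share the saline arrays with the strain comparison.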

How the results depend on the processing

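The count of members differing after ethanol was 5; it was 9 when any kept probe set could pass, 8 with the most variable probe set, 3 with the replicate block, and 0 when all 66 arrays entered 1 fit. The count after saline was 9, against 6 with the replicate block and 1 when all 66 arrays entered 1 fit. In that fit the BXD strains of a treatment stood as replicates, so its spread held strain differences. Deviations of same-numbered progenitor arrays correlated at -0.23 to 0.26 over 6 pairs. These pairs are too few to tell whether such arrays share more than a number. Leaving out single arrays gave 4 to 10 members after saline and 2 to 7 after ethanol; leaving out single strains gave 13 to 19 for the strain effect and 0 for ethanol, and the progenitor ethanol counts also remained 0. Shares of all genes under these settings are not given here, so shifts in the member counts are not read as particular to the members. The pair count was 1 in saline arrays alone. With the most variable probe set the intraclass correlation was -0.049 for Sema3c and -0.19 for Sema6d, and with the array SD as covariate -0.11 for Epha4; the cause was not tested. Over single genes, with the member counts left aside, 1541 alternative values were on the same side of the threshold with the same sign. These include values that passed in neither setting. Of the rest, 111 lost the call and 2 gained it. Another 4 changed sign where neither value passed, and 3 changed sign where at least 1 value passed. With 3 arrays per progenitor group, the signal of dim probe sets such as Robo3 limits what can be resolved.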

Other observations

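In BXD32 the saline array read 9.23 for Sema4a and the ethanol array 8.42, while the other 64 arrays lay between 7.93 and 8.76. The second Sema4a probe set read 9.13 and 8.21 in the same arrays, against 7.66 to 8.67 elsewhere. Both probe sets thus put this saline array above all others, and its paired ethanol array did not share the level. The values were singled out after they had been seen.

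Over the 66 members, 9 of 27 strains had their own ethanol array as the closest match of their saline array by correlation. Own-strain correlations ranged from -0.17 to 0.83 with a median of 0.30, and those with other strains had a median of -0.01.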
